A study of Homo sapiens with 8 samples.

Results

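The 6 genes described here are 5 galectins, LGALS1, LGALS3, LGALS8, LGALS9 and LGALS12, and LGALS3BP, a secreted glycoprotein that binds galectin-3 and is not itself a galectin. They were chosen by symbol, from a list selected on results of these data, with their levels and their response to all-trans retinoic acid in view. Which values weighed in that choice is not recorded. Their changes with retinoic acid are therefore given as a description, with no p-value. The 6 genes are 6 of the 61125 genes in the deposited tables, and all 6 were among the 14995 genes that passed the low-count filter. LGALS3BP passed that filter only through the groups that received retinoic acid.

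RNA was measured in U-937, an established human pro-monocytic cell line, by sequencing of poly-A enriched libraries. Cultures were held for 72 h with 1 of 4 treatments, with 2 libraries each. Vehicle cells received PBS and DMSO, LAA cells received 250 µM L-ascorbic acid (vitamin C, in PBS), ATRA cells received 1 µM all-trans retinoic acid (in DMSO), and LAA+ATRA cells received both compounds at those doses. All groups were grown in the same serum-containing medium with penicillin and streptomycin, and the labels do not say whether the groups given 1 compound also received the other solvent. The 2 libraries of a group are not said to come from separate cultures, so the p-values reflect only how far these libraries spread, which may be technical. Library totals ranged from 18462552 to 24166770 estimated counts.

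Galectins are small lectins that bind galactose-containing sugars. They are made in the cytosol, leave the cell without a signal peptide, and cross-link glycoproteins at the surface. Inside the cell they bind glycans exposed on damaged lysosomes and vacuoles. LGALS1 encodes galectin-1, a prototype galectin that acts as a dimer, LGALS3 encodes galectin-3, the chimera type with a self-associating tail, and LGALS8, LGALS9 and LGALS12 encode tandem-repeat galectins with a pair of sugar-binding domains in 1 chain. Retinoic acid acts through nuclear retinoic acid receptors and drives maturation of several myeloid leukaemia lines, and ascorbate is a cofactor of iron-dependent dioxygenases, the TET enzymes among them.

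On GRCh38, in the GENCODE 29 annotation, LGALS1 lies at chr22:37675608-37679806 on the plus strand, LGALS3 at chr14:55124110-55145413 on the plus strand and LGALS12 at chr11:63506084-63516774 on the plus strand. LGALS8 lies at chr1:236518000-236552981 and LGALS9 at chr17:27629798-27649560, both on the plus strand, and LGALS3BP lies at chr17:78971238-78980109 on the minus strand. Promoter sequence was matched for 4 of the 6 genes, LGALS3, LGALS3BP, LGALS8 and LGALS9. The 250 bases before the RefSeq start (GRCh38.p14) are shown for the gene that gained most RNA with ATRA, the galectin that lost most and a galectin that gained, so that their composition can be compared. They are written 5′ to 3′ on the gene's strand, and capitals mark matches, on either strand, to AGGTCA (a nuclear receptor half-site), GAGGAA (the PU.1 core), GGGCGG (a GC box) or TATAAA.
LGALS3BP (chr17:78979924-78980173, minus strand): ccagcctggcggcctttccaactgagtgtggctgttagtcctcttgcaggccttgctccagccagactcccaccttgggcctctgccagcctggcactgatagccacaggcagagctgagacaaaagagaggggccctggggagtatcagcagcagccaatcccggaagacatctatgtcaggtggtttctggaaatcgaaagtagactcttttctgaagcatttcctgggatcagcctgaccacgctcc
LGALS3 (chr14:55129002-55129251, plus strand): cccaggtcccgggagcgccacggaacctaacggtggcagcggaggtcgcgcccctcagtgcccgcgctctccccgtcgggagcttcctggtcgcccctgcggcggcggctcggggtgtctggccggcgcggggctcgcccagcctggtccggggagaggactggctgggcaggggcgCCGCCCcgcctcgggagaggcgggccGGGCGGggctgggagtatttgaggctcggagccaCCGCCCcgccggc
LGALS9 (chr17:27630938-27631187, plus strand): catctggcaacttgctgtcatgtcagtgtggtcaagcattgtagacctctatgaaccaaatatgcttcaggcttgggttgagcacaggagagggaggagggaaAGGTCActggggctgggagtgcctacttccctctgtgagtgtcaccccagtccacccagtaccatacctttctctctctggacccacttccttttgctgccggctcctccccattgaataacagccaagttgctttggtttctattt
The LGALS3BP window held none of the 4 motifs, 4 CpG and 56.8% GC. The LGALS3 window was a CpG-rich one, with 32 CpG, 78.8% GC and 3 GC boxes, whose first bases lie 73, 47 and 13 bases before the start. The LGALS9 window held 1 CpG, 51.6% GC and 1 AGGTCA, 147 bases before the start. Of the 35116 promoter windows of this length in the table, 12.1% held AGGTCA, 23.6% held GAGGAA, 42.6% held GGGCGG and 10.7% held TATAAA. These matches describe letters in a window and say nothing of binding. The 4 motifs do not overlap one another in these windows.

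Levels of different genes were compared per length, as the deposited FPKM (fragments scaled to transcript length and library size). LGALS1 was by far the most abundant of the 6, at 1417 and 1503 FPKM in the vehicle libraries, where its mean stood at rank 119 of the 14995 genes tested. It made up between 86.8% and 91.3% of the summed FPKM of the 6 genes in every library. LGALS9 followed in all 4 groups, at 95.3 and 94.1 FPKM in vehicle. Below it the order depended on the group. In vehicle it ran LGALS3 (36.2 and 40.6 FPKM), LGALS12 (29.003 and 32.5 FPKM), LGALS8 (23.1 and 25.7 FPKM) and LGALS3BP (0 and 0.0325 FPKM). With LAA, LGALS12 stood above LGALS3. In both ATRA groups the order was LGALS12, LGALS8, LGALS3 and LGALS3BP. In no group did the libraries of neighbours in this order overlap. LGALS3 held between 1.89% and 2.40% of the summed FPKM in the libraries without ATRA and between 0.328% and 0.533% in those with ATRA.

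**Figure D1:**
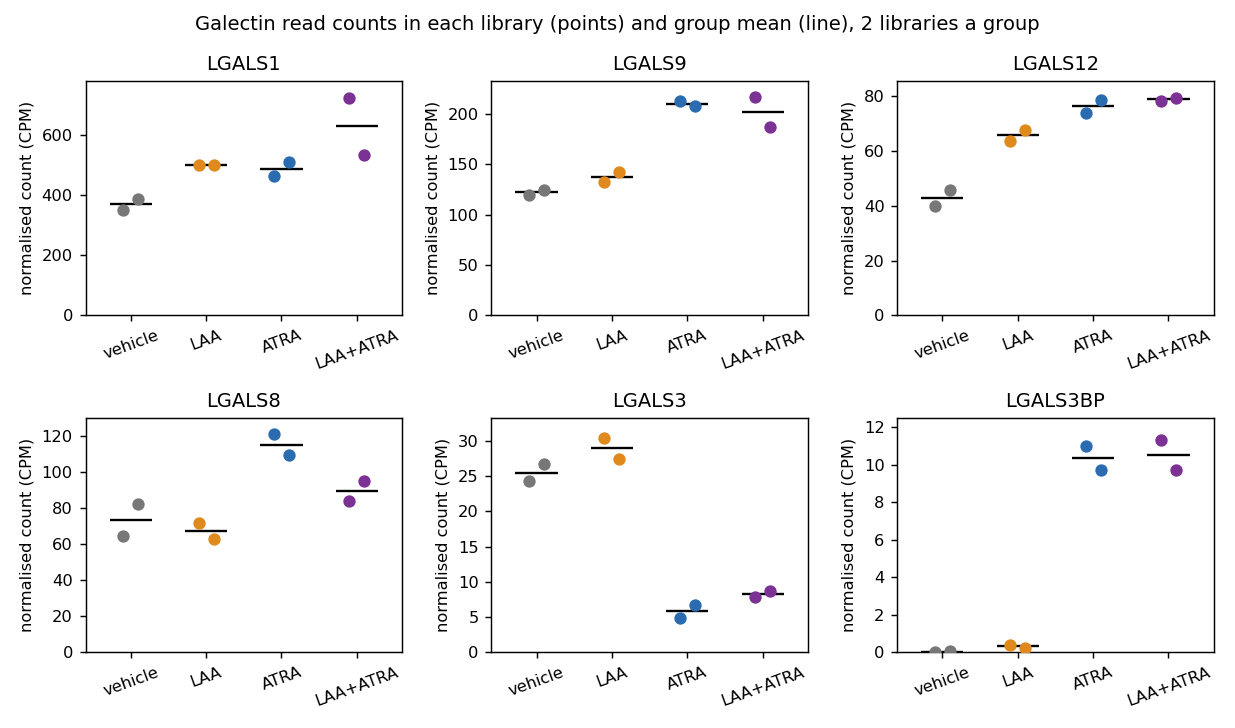
Normalised read counts (CPM, vertical axes from 0, a scale for each gene) of the 6 genes in vehicle, LAA, ATRA and LAA+ATRA cells. Points are libraries, 2 a group, and lines are group means. LGALS3 fell from 24.3 and 26.8 CPM in vehicle to 4.87 and 6.73 CPM with ATRA, whereas LGALS3BP stood at 0 and 0.0485 CPM in vehicle and at 11.005 and 9.71 CPM with ATRA.

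Changes of each gene were followed on normalised counts (CPM, counts scaled to library size, with TMM factors). Calls are those of edgeR's quasi-likelihood test with an adjusted p under 0.05, the adjustment being over all genes tested. With ATRA against vehicle, 6 of the 6 genes were called, 5 higher and 1 lower, with a median log2 fold change of 0.72. Of all genes tested, 42.9% were called in this comparison, with a median of -0.0036. The members were picked with this response known, so nothing is read from their count. The comparisons of ATRA, LAA and LAA+ATRA with vehicle share the vehicle libraries.

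LGALS1, the prototype galectin and the main one made by these cells, had 350.4 and 387 CPM in the vehicle libraries, 500.2 and 500.6 CPM with LAA, 463 and 511 CPM with ATRA, and 722 and 533 CPM with LAA+ATRA. All 6 treated libraries lay above both vehicle libraries, and the 2 LAA+ATRA libraries lay apart from each other. The log2 fold change against vehicle was 0.40 ± 0.13 (SE, n = 2 libraries a group here and below) with ATRA and 0.77 ± 0.13 with both compounds, a 1.70-fold difference. The ATRA call on LGALS1 was lost when vehicle library 1, vehicle library 2 or ATRA library 2 was left out, and on FPKM. With a correction for transcript length and GC, chosen after seeing the data, its ATRA change was 0.19 and was not called, and its change with both compounds was 0.41. LGALS1 transcripts are short, with a median of 516 bases, and the 631 tested genes within 10% of that length had a median ATRA change of 0.09 (log2), with quartiles of -0.34 and 0.60.

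LGALS3, the chimera galectin that binds the galectin-3-binding protein, had 24.3 and 26.8 CPM in vehicle, 30.5 and 27.5 CPM with LAA, 4.87 and 6.73 CPM with ATRA, and 7.77 and 8.70 CPM with LAA+ATRA. The 4 ATRA-treated libraries were all below the 4 others. The log2 fold change with ATRA was -2.13 ± 0.17, which leaves 0.229 of the vehicle level. With both compounds against vehicle it was -1.63 ± 0.16, and with both against LAA it was -1.81 ± 0.16. LGALS3 was the single member called lower in those 3 comparisons. By mean FPKM it moved from percentile 81.5 of the genes tested in vehicle to percentile 50.4 with ATRA.

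LGALS3BP, its secreted partner with a scavenger-receptor domain, was almost without reads in the cells not given ATRA. The raw counts were 0 and 1 in vehicle, 8 and 4 with LAA, 199 and 225 with ATRA, and 203 and 193 with LAA+ATRA. The LAA libraries lay above the vehicle libraries and far below the ATRA libraries, and the LAA+ATRA libraries fell among or near the ATRA ones. On library-scaled sums, the ratio of ATRA to vehicle was 425, with a 95% counting interval from 75.9 to 16840, wide because it rests on 1 vehicle read. LAA+ATRA to LAA, 396 reads against 12, gave a ratio of 34.2 (19.4 to 66.8). LAA+ATRA to ATRA gave 1.02 (0.887 to 1.17). These intervals cover counting error only. Those of ratios that differ in ATRA are no test, since the gene was chosen with that response in view.

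LGALS9, the tandem-repeat galectin known as a ligand of the receptor HAVCR2 (TIM-3), had 119 and 125 CPM in vehicle, 132 and 143 CPM with LAA, 213 and 208 CPM with ATRA, and 217 and 187 CPM with LAA+ATRA. All 4 libraries with ATRA stood above the 4 without, and the ATRA and LAA+ATRA libraries overlapped. The log2 fold changes were 0.79 ± 0.10 with ATRA and 0.73 ± 0.10 with both compounds against vehicle, and 0.55 ± 0.10 with both against LAA. The last was not called on FPKM. Near-identical copies, LGALS9B and LGALS9C, can share reads with LGALS9. LGALS9 held between 95.9% and 97.9% of the counts of the 3 genes, and their sum gave the same calls.

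LGALS12, a tandem-repeat galectin of adipocytes and myeloid cells that coats lipid droplets, had 39.9 and 45.8 CPM in vehicle, 63.9 and 67.6 CPM with LAA, 74.0 and 78.8 CPM with ATRA, and 78.4 and 79.6 CPM with LAA+ATRA. Each of the 3 treatments stood clear of vehicle, and ATRA and LAA+ATRA overlapped. The log2 fold change was 0.83 ± 0.10 with ATRA and 0.88 ± 0.10 with both compounds, 1.78-fold and 1.84-fold. Against LAA, both compounds gave 0.27 ± 0.10, which was not called.

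LGALS8, the tandem-repeat galectin that marks ruptured vacuoles for autophagy, had 64.7 and 82.5 CPM in vehicle, 71.4 and 62.7 CPM with LAA, 121 and 109 CPM with ATRA, and 84.2 and 94.8 CPM with LAA+ATRA. The ATRA libraries were the highest, the LAA+ATRA libraries came next, and vehicle and LAA overlapped. The log2 fold change was 0.64 ± 0.13 with ATRA and 0.42 ± 0.13 with both compounds against LAA, both called, and 0.28 ± 0.13 with both against vehicle, not called. The call against LAA was lost without LAA library 2 or LAA+ATRA library 2, and the change against vehicle was called without vehicle library 2 and with the length and GC correction.

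LGALS8 differed between the units. Its FPKM was 23.1 and 25.7 in vehicle, 25.7 and 22.6 with LAA, 38.0 and 29.2 with ATRA, and 24.03 and 22.9 with LAA+ATRA. On FPKM the LAA+ATRA libraries thus overlapped vehicle. In a limma fit on log2(FPKM + 1), the ATRA change was 0.44 and not called, both compounds against vehicle gave -0.05, and both against LAA gave -0.04. FPKM divides a count by a length set for the gene in each library, and the ratio of count to FPKM, corrected for library scale, gives that length relative to vehicle library 1. For LGALS8 it was 1 and 1.14 in vehicle, 0.976 and 0.976 with LAA, 1.14 and 1.34 with ATRA, and 1.21 and 1.47 with LAA+ATRA. The absolute log2 change in this length between vehicle and ATRA was 0.21, at percentile 86.0 of 10634 genes. In LGALS1, LGALS3, LGALS9 and LGALS12 it was at most 0.072. LGALS8 has 28 annotated transcripts. Transcript-level values were not analysed here, so how its isoforms took part was not tested.

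**Figure D2:**
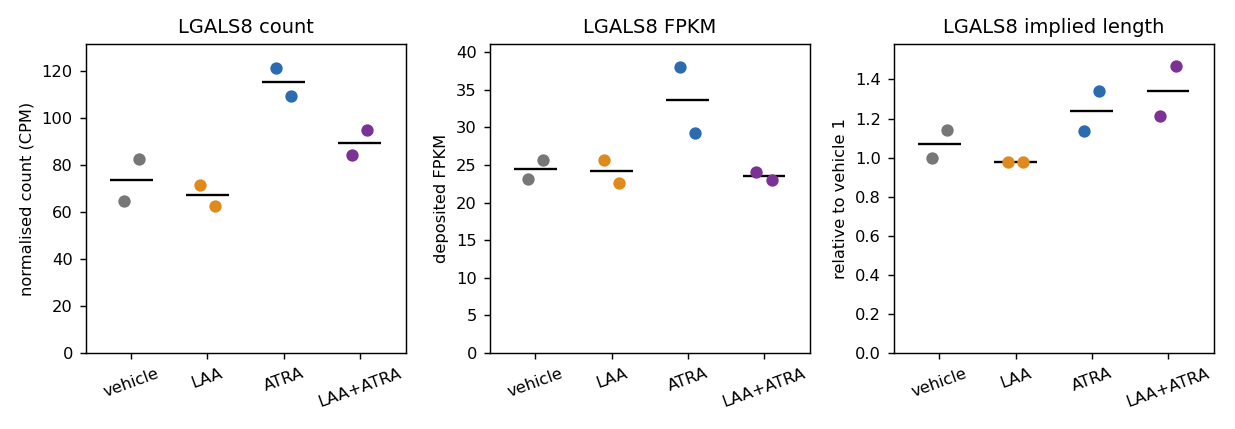
LGALS8 in 3 units: normalised count (CPM), deposited FPKM and the gene length implied by count over FPKM relative to vehicle library 1, each axis from 0. Points are libraries, 2 a group, and lines are group means. The LAA+ATRA libraries stand above vehicle in CPM but overlap it in FPKM, where the implied length is 1.21 and 1.47.

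LGALS8 also overlaps other genes on the opposite strand, AL359921.1 by 10187 bases, HEATR1 by 3977 bases, LGALS8-AS1 by 1457 bases and AL359921.2 by 543 bases. The strand setting of the counting is not given in the sources used here, so reads in the shared stretches may not be told apart. HEATR1, a ribosome biogenesis gene, moved the other way with ATRA, from 130.1 and 117 CPM in vehicle to 58.9 and 53.6 CPM. LGALS8-AS1 had between 2 and 11 counts a library. The levels of AL359921.1 and AL359921.2 were not examined. LGALS9 overlaps AC015688.4 on its own strand by 10980 bases, and AC015688.4 had 0 counts in every library.

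With both compounds against vehicle, 5 of the 6 genes were called, 4 higher and 1 lower, with a median of 0.75. Over all genes, 44.7% were called. With both compounds against LAA, 4 of the 6 were called, 3 higher and 1 lower, with a median of 0.37, beside 36.4% of all genes. LGALS8 was the gene not called against vehicle, and LGALS1 and LGALS12 were those not called against LAA. Against LAA, LGALS1 (0.33 ± 0.13) was called in DESeq2, without the low-count filter, without ATRA library 1 and without LAA+ATRA library 2, where it was 0.53, while it was 0.11 without LAA+ATRA library 1. LGALS12 was called against LAA without ATRA library 1.

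For LAA alone the adjusted p is given, though the vehicle libraries it uses were also in view when the genes were chosen. In edgeR's test 0 of the 6 genes were called against vehicle, and 3, LGALS3BP among them, had an unadjusted p under 0.05. DESeq2, which gave no adjusted p for LGALS3BP, called 2. Over all genes 4 were called, which is 0.0267%, and 18.9% had an unadjusted p under 0.05. LGALS12 came nearest, with a log2 fold change of 0.62 ± 0.10, 95% interval 0.39 to 0.84 and an adjusted p of 0.0509, at rank 16 of 14995 by p. Both LAA libraries were above both vehicle libraries. Over the alternatives its adjusted p ran from 0.00018 to 0.456, and it was called in DESeq2 (adjusted p = 0.000299), without the low-count filter, in a fit to the 4 libraries compared, with the length and GC correction, and without any 1 of the 4 libraries given ATRA. LGALS12 stood at percentile 92.1 of the 1170 genes of like length for its LAA change.

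LGALS1 followed, at 0.44 ± 0.13 (interval 0.15 to 0.73) and an adjusted p of 0.112 in edgeR, again with both LAA libraries above both vehicle libraries. Over the alternatives its adjusted p ran from 0.00111 to 0.578, with DESeq2 at 0.0132. The length and GC correction lowered the change to 0.25. Genes of like length had LAA changes with quartiles of -0.18 and 0.41, so LGALS1 lay at percentile 75.9 of them. LGALS3BP had 12 reads in LAA against 1 in vehicle, a ratio of 12.7 with a counting interval from 1.88 to 542. Its edgeR adjusted p was 0.0837, and 0.0275 without the low-count filter, both on those few reads. LGALS3 (0.18 ± 0.15, adjusted p = 0.555), LGALS9 (0.17 ± 0.10, adjusted p = 0.397) and LGALS8 (-0.13 ± 0.13, adjusted p = 0.636) were not called in edgeR, and their intervals ran from -0.14 to 0.51, from -0.05 to 0.40 and from -0.42 to 0.15.

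When LAA was added to ATRA, 0 of the 6 genes were called in edgeR, 3 had an unadjusted p under 0.05, and DESeq2, which gave no adjusted p for LGALS3BP, called 1, LGALS1. Over all genes 1.01% were called and 18.6% had an unadjusted p under 0.05. The ATRA libraries used here were in view when the genes were chosen, so the p-values of the members are a description. LGALS3 was higher with both compounds by 0.50 ± 0.18 (adjusted p = 0.16) and LGALS1 by 0.37 ± 0.13 (adjusted p = 0.164), and for each gene the libraries of the 2 groups did not overlap. The LGALS1 value rested on 1 library: it was 0.13 (adjusted p = 0.649) without LAA+ATRA library 1 and 0.57 (adjusted p = 0.0496) without LAA+ATRA library 2. LGALS8 was lower, at -0.36 ± 0.13 (adjusted p = 0.161), and its libraries did not overlap either. How many of all genes lacked overlap was not counted, here or for LAA alone, so nothing is read from the separation of libraries. LGALS9 (-0.06 ± 0.10), LGALS12 (0.05 ± 0.10) and LGALS3BP had overlapping libraries, with adjusted p-values of 0.811, 0.852 and 0.976. The intervals were -0.28 to 0.16 for LGALS9 and -0.17 to 0.27 for LGALS12.

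The interaction asks whether LAA and ATRA together differed from the sum of their separate log2 changes. This contrast holds the difference of ATRA from vehicle, which was in view when the genes were chosen. The p-values of the members are therefore a description and no test. Of all genes 1 was called, which is 0.00667%, and 4.98% had an unadjusted p under 0.05. Of the members, 0 were called in edgeR, and 2, LGALS12 and LGALS3BP, had an unadjusted p under 0.05. DESeq2 gave an adjusted p for LGALS1 and LGALS9 alone and called neither, so it does not bear on the other 4. For LGALS12 the sum of the separate changes exceeded the joint change, with an interaction of -0.57 ± 0.15, an unadjusted p of 0.00205 and an adjusted p of 0.662, which ran from 0.128 to 1 over the alternatives. LGALS3BP had an adjusted p of 0.715, on a fit that rests on the 1 vehicle read. LGALS3 (0.31 ± 0.23), LGALS8 (-0.23 ± 0.18), LGALS9 (-0.23 ± 0.14) and LGALS1 (-0.07 ± 0.19) had adjusted p-values between 0.986 and 1.

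**Figure D3:**
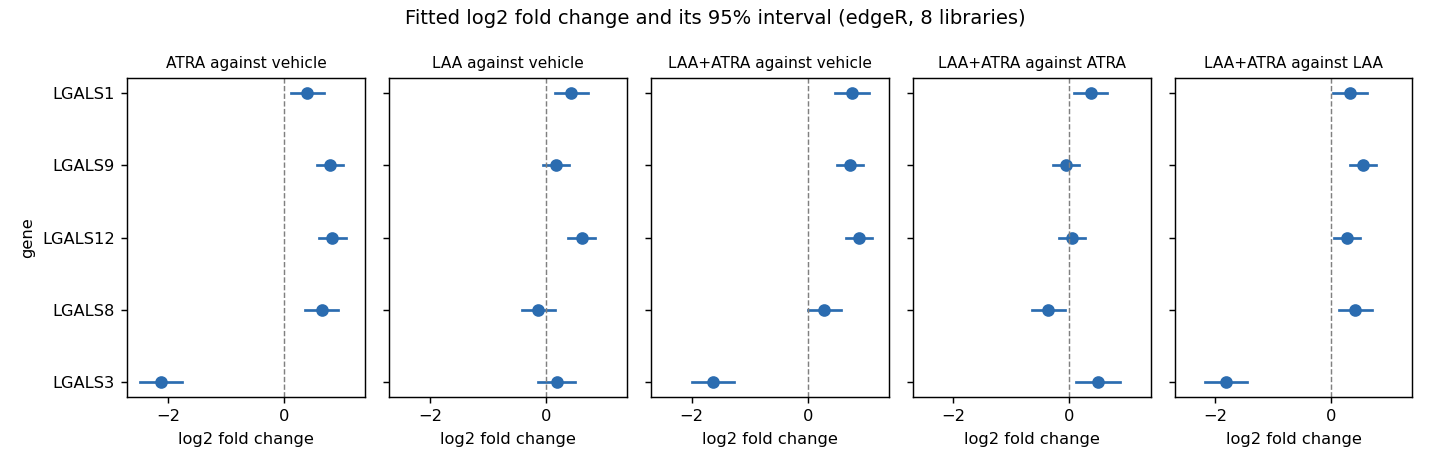
Fitted log2 fold change (horizontal axes, first group minus second) of LGALS1, LGALS9, LGALS12, LGALS8 and LGALS3 in 5 comparisons, with points for the estimate and lines for its 95% interval from edgeR on all 8 libraries. LGALS3BP is left out because its fitted change against vehicle depends on 1 read. Intervals in comparisons that differ in ATRA are a description, since the genes were chosen with that response in view. Those of the other comparisons use vehicle or ATRA libraries that were in view as well. LGALS3 is far to the left in the 3 comparisons that differ in ATRA (-2.13, -1.63 and -1.81), and LGALS12 is to the right of 0 with LAA (0.62).

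The genes most like each member in pattern were found among 9573 genes with a symbol and at least 10 CPM in the highest group mean, by the root mean square difference of centred log2 CPM over the 8 libraries. For LGALS1 they were SSNA1 (0.041), ATP6V1F (0.057) and SEM1 (0.062), and for LGALS9 they were DOK1 (0.040), CORO1A (0.043) and PHYKPL (0.049). LGALS12 was nearest to SVBP (0.065), NOP10 (0.079) and RBM3 (0.093), and LGALS8 to R3HCC1L (0.077) and BCL10 (0.093). Less close matches were found for LGALS3, to SLC1A3 (0.16), PRDX1 (0.20) and CDCA7 (0.20), and for LGALS3BP, to SIGLEC16 (0.41), NCF1C (0.43) and NCF1 (0.52). NCF1 and NCF1C are near-identical copies whose reads may be split between them. The median difference over all compared genes was between 0.38 and 0.42 for LGALS1, LGALS8, LGALS9 and LGALS12, 1.02 for LGALS3 and 3.18 for LGALS3BP, so these distances are not on 1 scale between members. SIGLEC16 rose from a mean of 0.121 CPM in vehicle to 13.8 CPM with ATRA.

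Of 12 other galectin family genes, 3 passed the low-count filter and all 3 were called higher with ATRA. This stands beside 42.9% of all genes called, and nothing particular to the family is read from 3 genes. LGALS4, an epithelial galectin, had 0.0481 and 0.340 CPM in vehicle and 0.830 and 1.12 CPM with ATRA. LGALS9B had 3.47 and 2.13 CPM and then 6.47 and 6.95 CPM, and LGALS9C had 0.626 and 0.485 CPM and then 1.94 and 1.98 CPM. Both copies share sequence with LGALS9, and 1 of the 3 genes was still called without vehicle library 1 or without ATRA library 2. LGALS2 had 49 counts over all libraries.

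The partners of galectins were read from lists drawn up with earlier results known. Among 23 tested genes that build galectin-binding glycans, ATRA raised 10 and lowered 5, with a median log2 change of 0.23. These and the counts of the next lists stand beside 42.9% of all genes called, 3280 higher and 3148 lower, and nothing particular to a list is read from them. B4GALT5, which adds galactose, rose from 128 and 110.0 CPM to 902 and 865 CPM (2.89 ± 0.12). B3GNT8, which extends lactosamine chains, rose by 3.01 ± 0.17, and MGAT1, which starts branched N-glycans, by 1.46 ± 0.13. ST6GAL1, which adds sialic acid caps that hinder several galectins, fell from 57.8 and 48.6 CPM to 19.8 and 18.1 CPM (-1.49 ± 0.15). MGAT5, which makes the branch favoured by galectin-3, fell by 0.47 (SE 0.11).

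Among 17 tested glycoprotein ligands and receptors, ATRA raised 9 and lowered 3 (median 0.41), beside the same 42.9%. VSIR (VISTA), a checkpoint receptor, rose from 49.6 and 54.9 CPM to 717 and 728 CPM (3.79 ± 0.11), and ITGAM, the CD11b integrin chain, rose by 3.67 ± 0.15. MERTK, a receptor for uptake of dying cells, rose by 1.95 ± 0.12. HAVCR2, the receptor of galectin-9, was low and was called lower, from 2.07 and 2.67 CPM to 0.442 and 1.04 CPM, while its ligand LGALS9 was higher. CD44 fell by 0.38 (SE 0.094). The 12 calls of this list became 7 without vehicle library 1 and 6 without vehicle library 2.

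Among 22 genes of the response to damaged lysosomes, ATRA raised 11 and lowered 1 (median 0.34), beside 42.9% of all genes called. TFEB and TFE3, which switch on lysosomal genes, rose by 1.26 ± 0.11 and 0.97 ± 0.11, and the autophagy receptor SQSTM1 rose by 0.80 ± 0.095. TRIM16, which binds galectin-3 at damaged membranes, was the 1 called lower, from 17.2 and 21.1 CPM to 13.5 and 11.3 CPM (-0.63 ± 0.16). With both compounds TRIM16 stood at 13.5 and 16.3 CPM, called lower against LAA but not against vehicle. LGALS3 was called lower in both of these comparisons. CALCOCO2, the autophagy receptor that binds galectin-8, was not called with ATRA alone. It was called lower with both compounds against vehicle. The 12 calls became 7 without vehicle library 2. Of 14 tested lipid droplet genes, the compartment of galectin-12, ATRA raised 8 and lowered 2 (median 0.50), again beside 42.9%. CIDEB, a droplet fusion protein, rose by 1.87 ± 0.11 and PLIN2, a droplet coat protein, by 1.23 ± 0.11, while DGAT2, a triglyceride synthesis enzyme, fell by 0.85 (SE 0.12). VPS13C, the partner of galectin-12 on droplets, rose by 0.55 ± 0.096.

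**Figure D4:**
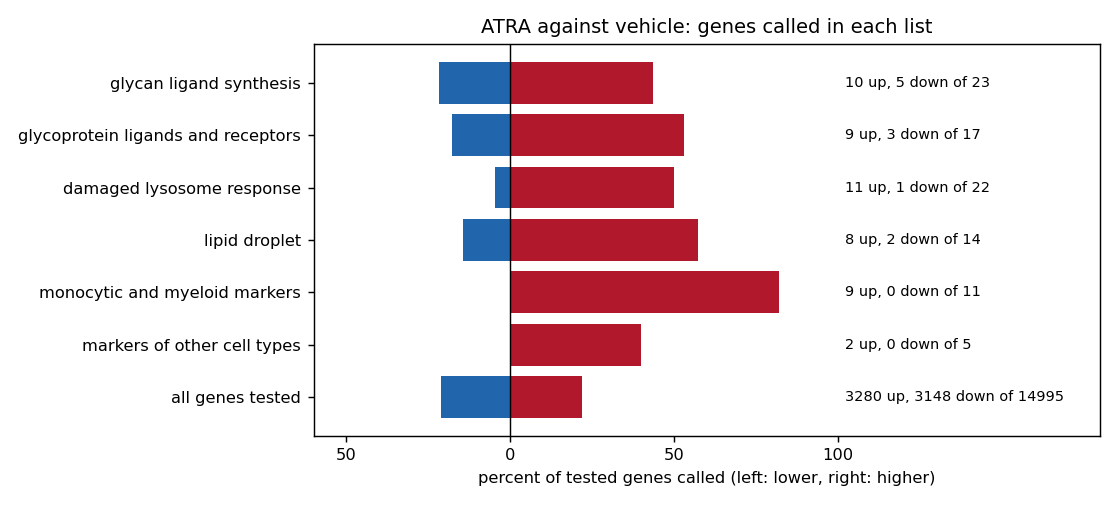
Percent of tested genes called with ATRA against vehicle in 6 gene lists and over all genes tested (horizontal axis, lower to the left of 0 and higher to the right). The numbers at the right are the genes called in each direction. Over all genes the directions are even, with 3280 higher and 3148 lower of 14995. The lists were drawn up with earlier results known, and nothing particular to a list is read from the bars.

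With LAA alone, 0 genes of any of these lists were called in edgeR. Unadjusted p-values under 0.05 were found for 7 of 23 glycan genes, 7 of 17 ligands and receptors, 4 of 22 lysosome genes, 2 of 14 lipid droplet genes and 1 of 3 other galectins, beside 18.9% of all genes. DESeq2 called 3, 5, 0, 0 and 0 of them, beside 680 of all genes, and an edgeR fit to the 4 libraries compared called 5, 6, 5, 1 and 0, beside 2187 of all genes. When LAA was added to ATRA, 2 of 23 glycan genes and 3 of 17 ligands and receptors were called, all lower, and none was called higher. Over all genes 1.01% were called, 74 higher and 78 lower, and nothing particular to a list is read from these counts. B4GALT5 stood at 484 and 547 CPM with both compounds (-0.78 ± 0.11 against ATRA, adjusted p = 0.0194), and B4GALT1, another galactosyltransferase, at 59.2 and 52.0 CPM against 81.7 and 85.4 CPM (adjusted p = 0.0333). PTPRC (CD45), a galectin-1 ligand, stood at 113 and 107 CPM against 171 and 173 CPM (-0.65 ± 0.096, adjusted p = 0.0194), with ITGB1 (adjusted p = 0.0338) and MERTK (adjusted p = 0.0428) also lower. In both lists 0 genes were called without LAA library 1 or LAA library 2, in a fit to the 4 libraries compared or on FPKM.

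Markers were read beside these values. Of 11 tested monocytic and myeloid markers, 9 were called higher with ATRA and 0 lower (median 1.08), beside 42.9% of all genes called. The 12 listed markers summed to 1856 to 1960 CPM in vehicle and 2044 to 2173 CPM with LAA. Their sum was 4387 to 4606 CPM with ATRA and 3881 to 3919 CPM with both. With LAA, 0 of the 11 were called and their median was 0.033. LYZ alone went from a mean of 473 CPM in vehicle to 759 CPM with LAA. ITGB2 was the largest part of the ATRA sum, with a mean of 806 CPM in vehicle and 2332 CPM with ATRA. It was the 1 marker called when LAA was added to ATRA, and was lower. CD68 and FCGR1A were among those that rose with ATRA. The labelled monocytic type was matched by the level of most markers in vehicle, though CSF1R stood at 1.93 and 2.77 CPM there. CD14 had 18 counts and MPO 70 counts over all 8 libraries. NKG7, listed as a marker of another cell type, had a mean of 273 CPM in vehicle. The 14 markers of other cell types summed to 333 to 347 CPM in vehicle, 339 to 361 CPM with LAA, 434 to 479 CPM with ATRA and 459 to 461 CPM with both, nearly all from NKG7 and PECAM1, which were called higher with ATRA. CD3E, CD3D, MS4A1, HBB, GP9 and CDH5 were among those at 0 in every library, and 7 to 9 of the 14 genes were at 0 in each group. In bulk RNA, fewer cells of a type and less RNA per cell cannot be told apart, and the part of marker changes in the galectin values was not tested.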

How the data were processed

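Per the submitters' processing notes, reads were handled with Salmon 1.8.0 and DESeq2 1.36.0 on GRCh38/hg38. No label or file header names the annotation release or the strand setting. The deposited values are the authors' estimated counts per gene, not scaled between libraries, and the authors' FPKM of the same genes, per kilobase and per library size. Rounding these to whole numbers altered 16.5% of the values. In R 4.3.3, edgeR 4.0.16 (filterByExpr, TMM) fitted 4 group means to all 8 libraries by the quasi-likelihood method, with 4 residual and 8.2 prior degrees of freedom. P-values were two-sided and adjusted by Benjamini-Hochberg over 14995 genes within each comparison. The SE was derived from the test, as the absolute log2 fold change over the square root of the quasi-likelihood F value. Intervals of 95% used that SE and a t quantile on the residual plus prior degrees of freedom. LGALS3BP ratios used summed counts with exact 95% intervals. Alternatives were DESeq2 1.42.0, RLE scaling, no low-count filter, a replicate block, a fit to the libraries compared, limma 3.58.1 on log2 FPKM (pseudocount 1 or 0.1, genes of at least 1 FPKM or all genes), and each library left out in turn. A length and GC correction, which covered 98.2% of genes, was added after seeing the data. The procedure was tested on simulated data.

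The members and gene lists were chosen with earlier results of these data known. The lists were other galectins, glycan ligand synthesis, glycoprotein ligands and receptors, damaged lysosome response, lipid droplet, monocytic and myeloid markers and markers of other cell types. Genes were named by a rule: all members, up to 4 called genes of each list by lowest p in each comparison, and the 3 genes most like each member in pattern. A few genes that the rule or lists hold are not reported here. B4GALT1, ITGB1, PTPRC and MERTK are named under it through LAA+ATRA against ATRA. MGAT5, CD44, HAVCR2, TRIM16, CALCOCO2, VPS13C, LYZ, CSF1R, marker genes at 0, LGALS2, CD14, MPO, HEATR1 and AC015688.4 were named after their values were seen. Replicate numbers carry no stated meaning and were not used as pairs.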

Additional observations from a re-analysis of the deposited data

How the results depend on the processing

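For LAA against vehicle, where edgeR called 0 members and 4 genes in all, the counts of members and of all genes called were 2 and 680 in DESeq2, 3 and 828 without the low-count filter, 2 and 2187 in a fit to only the libraries compared, and 1 and 187 with the length and GC correction. All genes called came to 12 on log2(FPKM + 0.1). Leaving out 1 library gave 0 to 2 members and 0 to 469 genes, with the highest count without ATRA library 1. For LAA+ATRA against ATRA, with 0 members and 152 genes, the counts were 1 and 661 in DESeq2 and 1 and 903 without the filter, and all genes called came to 15 with only the libraries compared, 13 on log2(FPKM + 1), 17 on log2(FPKM + 0.1), 20 on FPKM with no filter, and 330 with the length and GC correction. Leaving out 1 library gave 0 to 1 members and 6 to 172 genes, with 6 without either LAA library. For LAA+ATRA against LAA, with 4 members called, 2 were called in each of the 3 FPKM fits, 5 in DESeq2 and without the filter, and 3 to 6 with 1 library left out. For the interaction, 1 gene in all became 16 in DESeq2, 136 without the filter, 9 on log2(FPKM + 1), 21 on log2(FPKM + 0.1) and 9 on FPKM with no filter, and 1 to 15 with 1 library left out, 15 without ATRA library 1.

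With the replicate block, LAA against vehicle had 2 genes called and LAA+ATRA against ATRA had 30. The correlations of the difference between library 1 and library 2 ran from -0.070 to 0.074 between groups. They show no strong shift shared by replicate number, but cannot tell whether the numbers pair the libraries. No member's call changed under the block.

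Some small member changes reversed sign. LGALS8 gave -0.30 to 0.048 for LAA against vehicle with 1 library left out, positive without vehicle library 2. On FPKM it gave -0.0516, -0.0534 and -0.0516 for LAA+ATRA against vehicle and -0.0371, -0.0384 and -0.0371 against LAA. For LAA+ATRA against ATRA, LGALS9 ran from -0.17 to 0.043 and LGALS3BP from -0.10 to 0.13 with 1 library left out, and LGALS3BP was -0.14 with the length and GC correction. The LGALS1 interaction ran from -0.30 to 0.13 with 1 library left out. The cause of these shifts was not tested. Of the member values under alternatives, 560 kept direction and side of the threshold, counting by direction alone 6 values to which DESeq2 gave no adjusted p, 15 lost the call, 24 gained it and 12 reversed. Depth limits LGALS3BP without ATRA, which had at most 8 reads a library.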
